A study of Mus musculus with 2 samples.

Results

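The clustered histone genes were taken as every gene whose deposited symbol starts with Hist1h to Hist4h and goes on with 1, 2a, 2b, 3 or 4, that is the H1, H2A, H2B, H3 and H4 genes. The rule found 67 members among the 31053 genes of the count matrices and used no measured value. Over the 5 groups of cells compared here, 54 members held at least 1 UMI (unique molecular identifier, a tag that marks 1 captured mRNA molecule), 41 held 3 or more and are described, and 13 held 0. Together the members held 3890 UMIs in these groups, and 3 of them, Hist1h2bc, Hist1h1c and Hist3h2a, held 53.9% of that sum.

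Cells positive for CD11b and F4/80, surface proteins of microglia, macrophages and monocytes, were sorted from retinas of C57BL/6j mice at postnatal day 17. The disease group had gone through the oxygen-induced retinopathy (OIR) model, in which young mice are exposed to high oxygen and then returned to room air, and the control group was kept in room air (RA). Retinas were pooled, and each condition was read as 1 library (10x Chromium, 3′ single-cell RNA-Seq), so differences between RA and OIR are differences between 2 libraries and no test between conditions could be made. Intervals in parentheses are 95% and cover counting error alone.

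The clustered histone genes code for the proteins that package DNA. H2A, H2B, H3 and H4 form the core of the nucleosome, and H1 proteins bind the DNA between nucleosomes. Most of these genes have no intron, lie in dense groups on a few chromosomes, and are known as replication-dependent: in dividing cells their mRNAs accumulate while DNA is copied, and these mRNAs usually end in a stem-loop instead of a poly(A) tail. Some members can also make mRNAs with a poly(A) tail, and a library primed on poly(A), as used here, records those. Members of the same core kind (H2A, H2B, H3 or H4) are close to identical in their coding sequence, and reads that match several genes are not counted by Cell Ranger. The split of UMIs among near-identical members is therefore uncertain, and a member at 0 may have lost its reads to this step.

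The bases just before the start of 7 members are shown because the results below turn on them: Hist1h1b and Hist1h2ap were found almost only in dividing cells, Hist1h1c and Hist3h2a in all groups, Hist1h2ac shares its upstream region with Hist1h2bc, and Hist1h1e and Hist1h4d had lower OIR values in several groups. Each line runs 5′ to 3′ over the 250 bases before the RefSeq start on GRCm38.p6, with matches to 4 words in capitals: TATAAA (the TATA box), the CCAAT box, the octamer ATTTGCAT known from H2B promoters, and the word AAACACA known from H1 promoters, each searched on both strands.
Hist1h1b (chr13:21780626-21780875, minus strand): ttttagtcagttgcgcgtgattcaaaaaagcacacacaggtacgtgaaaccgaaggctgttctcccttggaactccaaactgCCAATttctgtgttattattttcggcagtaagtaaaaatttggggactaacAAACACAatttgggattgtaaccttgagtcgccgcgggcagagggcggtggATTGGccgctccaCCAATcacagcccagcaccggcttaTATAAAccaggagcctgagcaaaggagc
Hist1h2ap (chr13:21833476-21833725, minus strand): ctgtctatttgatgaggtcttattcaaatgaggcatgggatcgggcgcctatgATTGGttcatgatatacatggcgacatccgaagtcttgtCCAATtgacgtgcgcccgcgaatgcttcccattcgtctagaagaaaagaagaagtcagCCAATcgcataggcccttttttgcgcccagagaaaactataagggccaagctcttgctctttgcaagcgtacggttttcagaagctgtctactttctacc
Hist1h1c (chr13:23738557-23738806, plus strand): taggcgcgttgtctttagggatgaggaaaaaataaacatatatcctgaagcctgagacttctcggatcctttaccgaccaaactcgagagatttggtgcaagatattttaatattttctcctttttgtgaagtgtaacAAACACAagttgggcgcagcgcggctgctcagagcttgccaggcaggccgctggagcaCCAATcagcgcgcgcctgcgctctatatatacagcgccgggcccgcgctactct
Hist3h2a (chr11:58954435-58954684, plus strand): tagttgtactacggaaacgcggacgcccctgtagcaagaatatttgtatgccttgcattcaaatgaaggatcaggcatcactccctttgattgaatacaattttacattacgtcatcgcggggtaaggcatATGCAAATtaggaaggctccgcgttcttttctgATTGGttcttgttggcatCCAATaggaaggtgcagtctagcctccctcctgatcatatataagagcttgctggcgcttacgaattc
Hist1h2ac (chr13:23683960-23684209, minus strand): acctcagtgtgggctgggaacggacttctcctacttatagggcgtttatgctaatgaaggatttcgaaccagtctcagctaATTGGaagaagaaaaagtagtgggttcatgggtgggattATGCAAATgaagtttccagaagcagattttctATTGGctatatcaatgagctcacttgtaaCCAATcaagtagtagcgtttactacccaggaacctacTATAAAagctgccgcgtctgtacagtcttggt
Hist1h1e (chr13:23622559-23622808, minus strand): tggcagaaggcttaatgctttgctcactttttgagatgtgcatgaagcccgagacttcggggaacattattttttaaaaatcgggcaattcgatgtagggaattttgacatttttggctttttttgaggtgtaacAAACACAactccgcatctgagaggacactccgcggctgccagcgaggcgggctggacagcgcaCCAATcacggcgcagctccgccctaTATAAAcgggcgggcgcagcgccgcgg
Hist1h4d (chr13:23581318-23581567, plus strand): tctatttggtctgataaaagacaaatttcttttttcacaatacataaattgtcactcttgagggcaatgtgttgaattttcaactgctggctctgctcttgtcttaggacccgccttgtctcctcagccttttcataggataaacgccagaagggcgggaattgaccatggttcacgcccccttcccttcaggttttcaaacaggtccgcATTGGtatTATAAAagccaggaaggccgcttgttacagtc
The table of promoters held 62 of the 67 members, and the words were counted there in windows that also take in the 50 bases after the start. CCAAT was in 85.5% of the members and 37.4% of all 32851 promoters, and TATAAA was in 56.5% against 13.6%. ATTTGCAT was in 22.6% against 1.74% and, among members, in 7 of 18 H2A and 7 of 16 H2B genes and in no H1, H3 or H4 gene. AAACACA was in 14.5% against 7.18%, and in 5 of 6 H1 genes. CCAAT was in every H1, H2A, H2B and H3 promoter of the table but in only 3 of 12 H4 promoters. Hist1h1b, near absent outside dividing cells, and Hist1h1c, present in all groups, both held CCAAT and AAACACA. The window of Hist1h2ac on the minus strand reaches the start of Hist1h2bc on the plus strand (chr13:23684199), so the pair is divergent.

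The RA matrix held 1449 barcodes and the OIR matrix 1259, with medians of 8607 and 5254 UMIs and 0 barcodes in common, and 2474 of 2708 barcodes were kept after the filters. Dividing cells were those with UMIs of at least 3 of Top2a, Mki67, Birc5, Ube2c, Pclaf and Cdk1, genes used in mitosis and DNA replication, and numbered 11 in RA and 142 in OIR, or 1.13% (0.566 to 2.02) and 15.3% (13.03 to 17.8) of the myeloid cells. Of these 153 cells, 112 fell in 1 cluster led by Top2a and Hist1h1b, and the microglia markers summed to 23419 CPM (UMIs scaled to all UMIs of the group) in RA and 35173 CPM in OIR dividing cells. The same list summed to 37140 and 47206 CPM in other microglia-like cells and to 23812 and 30716 CPM in macrophage-like cells. Another 14 and 9 dividing cells lay in the 2 macrophage clusters and 5 in the monocyte cluster, so dividing cells are a mix of myeloid types. The macrophage list summed to 5260 CPM in RA and 2370 CPM in OIR dividing cells, against 408 and 406 CPM in other microglia-like cells. The monocyte list summed to 2874 and 366 CPM, against 18.7 and 76.5 CPM. All 5 dividing cells of the monocyte cluster were from OIR. A neutrophil-led cell, described below, held 24830 of the 155517 UMIs of the RA dividing cells. The RA sums of these lists were not taken without it. In OIR the members summed to 790.3 CPM (739 to 844) in the 104 dividing cells of the cluster led by Top2a, 287 CPM (228 to 357) in the 12 of the larger macrophage cluster and 219.5 CPM (139 to 329) in the 5 of the monocyte cluster. Most of the remaining cells were grouped by clusters that were named from marker lists: other microglia-like cells (778 RA, 548 OIR), macrophage-like cells (83, 112), monocyte-like cells (52, 87) and rod-like cells (191, 153). Another 180 RA and 137 OIR kept cells were left outside the groups. Among them were cells of the cluster led by Top2a that failed the rule for dividing cells. These ungrouped cells held 6 and 2 UMIs of Hist1h2ap and 0 and 2 UMIs of Hist1h1b. The rod markers summed to 136063 CPM in RA and 143060.0 CPM in OIR rod-like cells, and to 92.8 and 104 CPM in the other microglia-like cells. Rod-like cells were shallow, with medians of 1467 and 1035 UMIs, and only 30 of 191 and 10 of 153 held a UMI of the nuclear RNA Malat1. In RA, 1 dividing cell was led by neutrophil genes, at 49255 CPM of its UMIs against 161 CPM for the microglia list, and in OIR 1 dividing cell was led by red cell genes, at 192689 CPM. The RA cell bears on several RA values, and the main ones are given with and without the pair.

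Summed over all members, the clustered histone genes stood highest in dividing cells and rod-like cells and lowest in the other myeloid cells. In dividing cells they held 244 UMIs in RA, or 1569 CPM (1378 to 1779), and 1103 UMIs in OIR, or 640.5 CPM (603 to 679). Other microglia-like cells held 859 and 530 UMIs, or 109 CPM (102 to 117) in RA and 135 CPM (124 to 147) in OIR. Macrophage-like cells lay at 168 and 184 CPM and monocyte-like cells at 139 and 93.6 CPM. Rod-like cells lay at 1358 CPM (1229.7 to 1495) in RA and 959 CPM (826 to 1107) in OIR. Thus in each library the intervals of dividing and rod-like cells lay apart from those of the 3 other groups. In OIR, dividing cells held 22.1% of the UMIs of the 5 groups and 52.4% of the member UMIs, and in RA 1.55% and 13.7%.

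**Figure D1:**
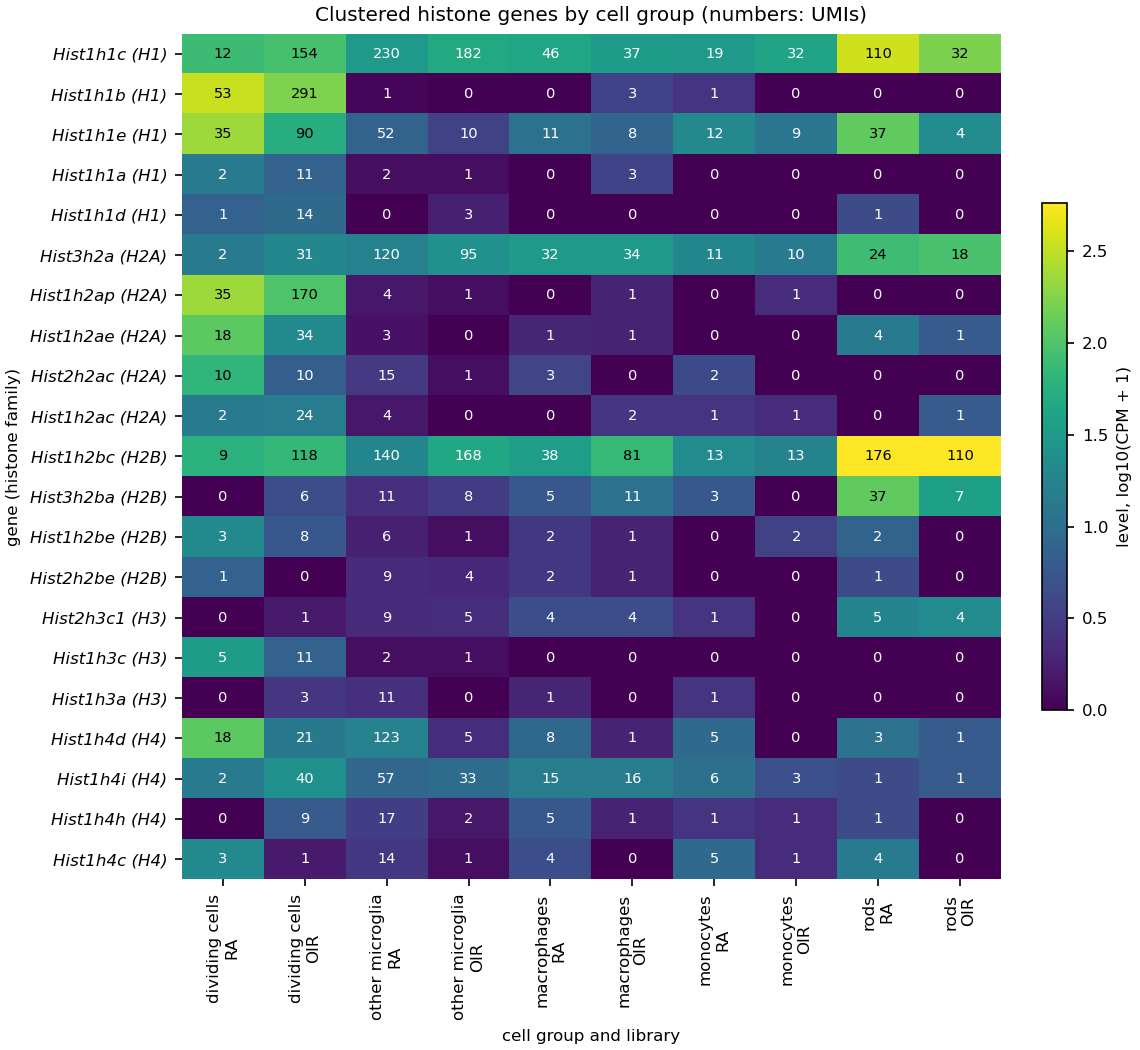
Levels of the 21 named members (rows) in 5 groups of cells in RA and OIR (columns), with colour for log10 of CPM + 1 and the number of UMIs printed in each field. Hist1h1b reads 53 and 291 UMIs in dividing cells and 0 to 3 in every other column, whereas Hist1h1c, Hist3h2a and Hist1h2bc have UMIs in all 10 columns.

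The same sum mixed different members in different cells. By kind, H1 members took 38.8% of all member UMIs, H2B 26.7%, H2A 19.8%, H4 11.5% and H3 3.21%. In RA dividing cells H1 stood at 662 CPM (541 to 803) and H2A at 521 CPM (414 to 647), against 129 CPM for H2B, 103 CPM for H3 and 154 CPM for H4. Without the neutrophil-led cell these levels were 497 CPM for H1, 298 CPM for H2A, 76.5 CPM for H2B, 45.9 CPM for H3 and 107 CPM for H4. In OIR dividing cells the order was also H1 (325 CPM) and H2A (165 CPM) before H2B (88.8 CPM), H4 (44.1 CPM) and H3 (17.4 CPM). In rod-like cells H2B came at the top, at 715 CPM (623 to 817) in RA and 606 CPM (501 to 727) in OIR, and H4 at the bottom, at 29.7 and 10.4 CPM. In RA other microglia-like cells H1 (36.2 CPM) and H4 (27.9 CPM) led. These values count mRNA molecules by their 3′ ends, so they carry no correction for length.

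Dividing cells were compared with other microglia-like cells within each library, the question being which members mark cells in the cell cycle. The summed level was 14.4-fold higher in RA (12.4 to 16.6) and 4.74-fold higher in OIR (4.27 to 5.26), and without the 2 dividing cells led by other lists 9.40-fold in RA and 4.75-fold in OIR. Fold changes were read for members with at least 10 UMIs in both groups together. In OIR 12 of 16 such members were higher by more than 2-fold, against 12.2% of all genes compared, and 0 were lower, against 4.46%. In RA 10 of 15 were higher, against 17.0%, and 3 were lower, against 29.1%. Without the neutrophil-led cell 8 of 14 were higher in RA, against 15.7%. The 3 lower members, Hist3h2ba, Hist1h4h and Hist1h3a, held 0 UMIs in the 11 RA dividing cells, where the floor of 3 UMIs allows a higher level as well. The filter itself favours genes that are high in 1 of the groups. Only 11 of the 15 RA members and 5 of the 16 OIR members had 10 UMIs in the microglia-like cells alone, of which 6 and 2 were higher. The shares of all genes given above belong to the filter on both groups together. These counts therefore have no background beside them and are a description. The median fold change over the members read was 5.63 in RA and 15.6 in OIR, against 0.921 and 1.10 over all genes, which is a description, since most OIR members entered through the dividing cells, where they were high.

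Among the linker histones, Hist1h1b (RefSeq H1f5, chr13:21779832-21780625) was near absent outside dividing cells. It held 53 UMIs in the 11 RA dividing cells, 27 of them in the neutrophil-led cell. In the 142 OIR dividing cells it held 291 UMIs, and in the 778 and 548 other microglia-like cells 1 and 0 UMIs. Its OIR level of 169 CPM was at least 221-fold higher than in the other microglia-like cells, taken at a floor of 3 UMIs. Hist1h1b was detected in 58 of 142 OIR dividing cells (40.8%, exact binomial interval 32.7 to 49.4) and in 0 of 153 OIR rod-like cells, which allows a share of cells with a UMI of up to 2.38%. The median depths were 11350.5 and 1035 UMIs, so this limit is not one on cells expressing the gene. After each cell was thinned to 2100 UMIs, it was found in 24 of 120 OIR dividing cells (20%) and in 0 of 470 other microglia-like cells.

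Hist1h1e (H1f4, chr13:23621777-23622558) held 35 and 90 UMIs in dividing cells and 52 and 10 UMIs in other microglia-like cells, 34.1-fold (21.6 to 53.3) and 20.5-fold (10.6 to 44.2) higher in CPM. Without the neutrophil-led cell its RA ratio was 27.8 (16.4 to 45.9). Hist1h1c (H1f2, chr13:23738807-23739531) behaved in another way. It held 12 and 154 UMIs in dividing cells but also 230 and 182 UMIs in other microglia-like cells, and its level in dividing cells was 2.64-fold (1.35 to 4.71) higher in RA and 1.93-fold (1.54 to 2.40) higher in OIR. Its RA ratio rose to 3.14 (1.60 to 5.60) without the neutrophil-led cell. When cells were clustered without integration, which left fewer other microglia-like cells, the OIR ratio of Hist1h1c turned to 0.829 (0.601 to 1.16). The minor linker genes Hist1h1a and Hist1h1d held 11 and 14 UMIs in OIR dividing cells and 1 and 3 in OIR other microglia-like cells. The testis linker histone Hist1h1t held 0 UMIs in every group.

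The core histone H2A genes showed a like contrast. Hist1h2ap (H2ac24, chr13:21833024-21833475) held 35 and 170 UMIs in dividing cells and 4 and 1 UMIs in other microglia-like cells, 443-fold (158 to 1717) higher in RA. Without the neutrophil-led cell the RA ratio was 301 (101 to 1213). In OIR, where a single UMI stood in the other microglia-like cells, the ratio was 387 (68.5 to 15371). Hist1h2ae held 18 and 34 UMIs in dividing cells against 3 and 0, and Hist1h2ac held 2 and 24 UMIs against 4 and 0. In OIR these genes were at least 25.8-fold and 18.2-fold higher at the floor of 3 UMIs. Hist3h2a (H2aw), which lies on chromosome 11 away from the large clusters, did not follow them. Its UMIs were 2 and 31 in dividing cells and 120 and 95 in other microglia-like cells, and its level in dividing cells was 0.743-fold (0.478 to 1.12) that of other microglia-like cells in OIR and 0.844-fold (0.101 to 3.12) in RA.

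Of the H2B genes, Hist1h2bc (H2bc4) was the member with most UMIs, 866 in all. Its UMIs were 9 and 118 in dividing cells and 140 and 168 in other microglia-like cells, 3.26-fold (1.46 to 6.36) higher in RA dividing cells and 1.60-fold (1.25 to 2.04) in OIR. Of the 9 RA UMIs, 6 came from the neutrophil-led cell, and without it the RA ratio was 1.29 (0.263 to 3.85), no longer past 2-fold. In RefSeq Hist1h2bc spans 8282 bases, against 794 bases for Hist1h1b and 452 bases for Hist1h2ap. The other long named members were also H2B genes, Hist1h2be with 37455 bases and Hist2h2be with 2667 bases. Hist1h2be held 3 and 8 UMIs in dividing cells and 6 and 1 in other microglia-like cells. Hist3h2ba, beside Hist3h2a on chromosome 11, held 0 and 6 UMIs in dividing cells and 11 and 8 in other microglia-like cells, so neither library placed it in dividing cells alone.

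H3 members were sparse, with 125 UMIs in all. Hist1h3c held 5 and 11 UMIs in dividing cells and 2 and 1 in other microglia-like cells, whereas Hist2h3c1 on chromosome 3 held 0 and 1 in dividing cells and 9 and 5 in other microglia-like cells. Of the 5 RA UMIs of Hist1h3c, 4 came from the neutrophil-led cell. Hist1h3a had 11 UMIs in RA other microglia-like cells and 0 in the 11 RA dividing cells, too few to set a fold change. Among H4 genes, Hist1h4i (H4c9) was 2.76-fold (1.696 to 4.51) higher in OIR dividing cells, with 40 UMIs against 33. Hist1h4d (H4c4) was 7.41-fold (4.25 to 12.2) higher in RA, with 18 UMIs against 123, and 9.56-fold (3.51 to 32.4) in OIR, with 21 UMIs against 5. Its RA ratio without the neutrophil-led cell was 4.90 (2.29 to 9.32). H4 genes code for near-identical proteins, so these are differences between genes and not between products.

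**Figure D2:**
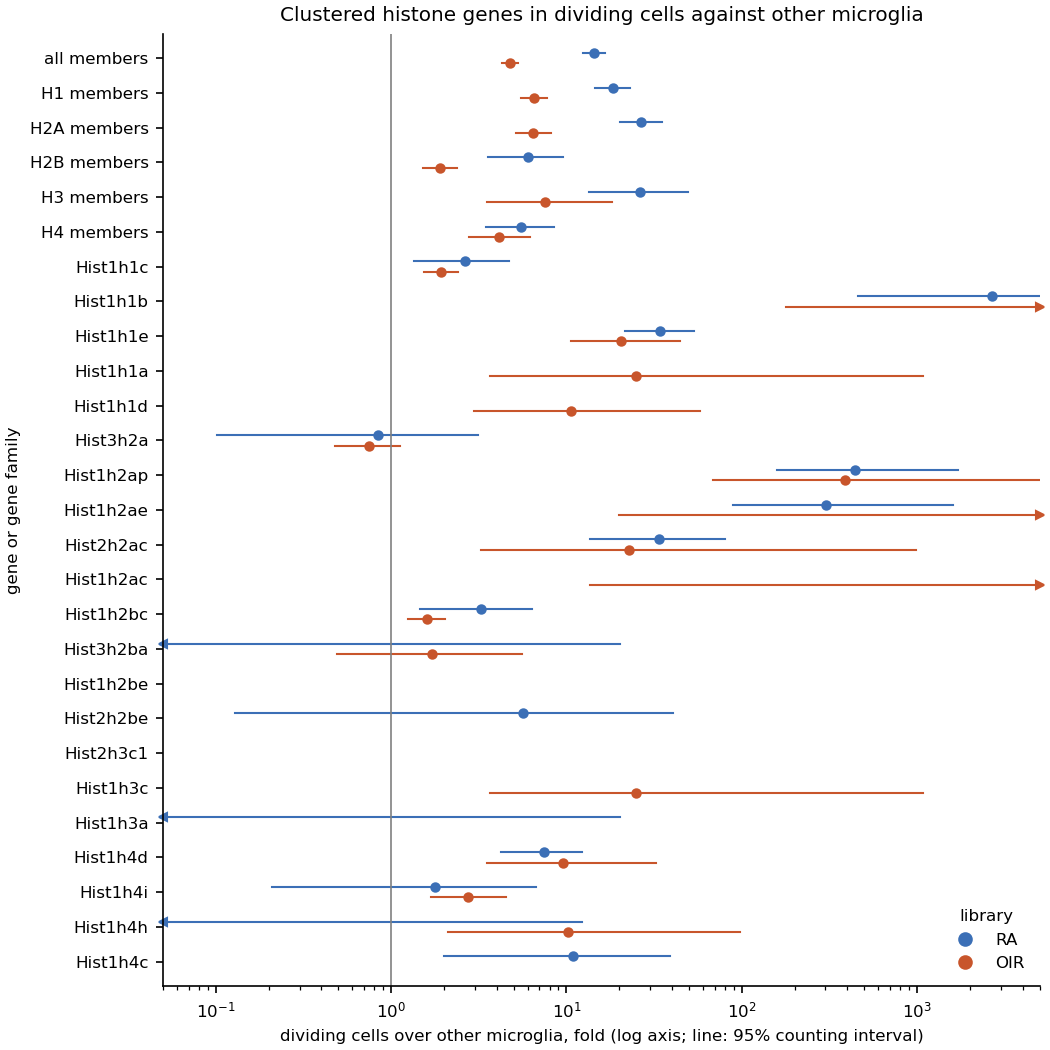
Fold change of each member in dividing cells over other microglia-like cells on a log axis, RA in blue and OIR in orange, with points for the ratio of CPM, bars for the 95% counting interval and arrows where 1 group held 0 UMIs. Hist1h1b and Hist1h2ap lie beyond 200-fold in both libraries and Hist3h2a lies at 0.844 and 0.743.

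The members on chromosome 13 were also read by position. The 54 members there fall into 2 stretches, chr13:21715711-22043658 with 23 members and chr13:23531044-23934913 with 31 members, parted by 1487 kb. The former held 618 of the chromosome 13 member UMIs in dividing cells of both libraries, or 48.5%, but only 101 (9.21%) in other microglia-like cells and 3 (0.610%) in rod-like cells. The latter held 657, 996 and 489 UMIs. A few genes set these shares: Hist1h1b, Hist1h2ap and Hist1h4i held 344, 205 and 42 UMIs of the former stretch in dividing cells, and Hist1h1c and Hist1h2bc most of the latter stretch elsewhere. The stretch alone did not part the members. Hist1h2ae of the latter stretch held 52 of its 62 UMIs in dividing cells, and Hist1h4i of the former held 90 UMIs in other microglia-like cells. Neighbours could differ sharply, since Hist1h2ac had 1 UMI in the rod-like cells of both libraries and its divergent partner Hist1h2bc had 286.

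**Figure D3:**
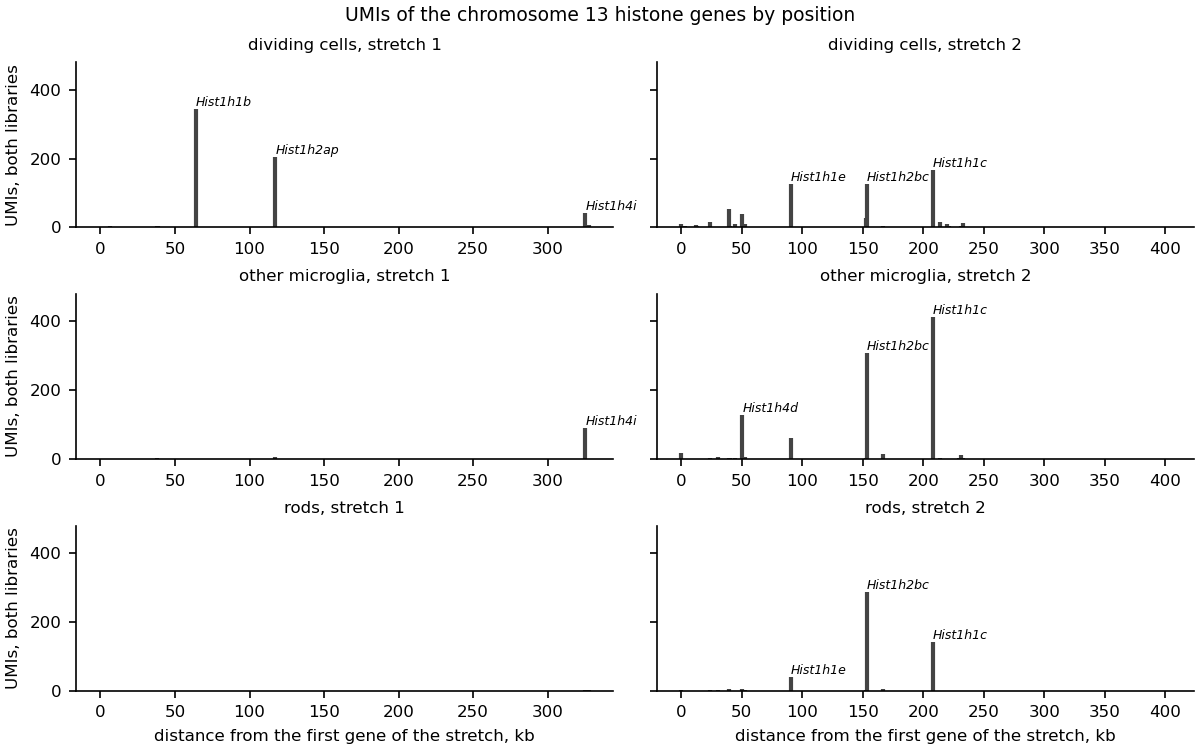
UMIs of each member along the 2 stretches of chromosome 13, by distance in kb from the first member of each stretch, for dividing cells, other microglia-like cells and rod-like cells of both libraries together. Hist1h1b and Hist1h2ap make up most of the former stretch in dividing cells, and that stretch has only 3 UMIs in rod-like cells.

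The dividing cells differed widely among themselves. In OIR the members held 0 UMIs in the lowest cell, 3.5 in the median cell and 50 in the highest, and 32 of 142 cells held 0. In RA these values were 0, 5 and 110, with 0 in 2 of 11 cells. The RA cell with 110 UMIs was the one led by neutrophil genes, and it alone held 45.1% of the RA sum. In OIR the sum was spread more widely, and the highest cell held 4.53% of it. OIR cells with Hist1h1b were often those with Hist1h2ap: 40 cells held both genes, which is 69.0% of the 58 cells with Hist1h1b and 80% of the 50 cells with Hist1h2ap. Hist1h1c was found in 50 of the 142 cells and Hist1h2bc in 47. The overlap of Hist1h1b with Hist1h1c was 25 cells and with Hist1h2bc 18 cells, or 43.1% and 31.0% of the cells with Hist1h1b. Cells with more UMIs hold more genes, and the part of depth in these overlaps was not tested.

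The dividing cells were then ordered by the share of S-phase genes (43 genes, mostly of DNA replication) among their UMIs of S-phase and G2/M genes (49 genes, mostly of mitosis). None of the 6 genes of the rule was used. The cells had been chosen by those genes, however, so the order is not independent of that choice. S-phase cells that failed the rule would be missing from it. Summed together, the members were lowest in the cells richest in S-phase genes. In 4 bins of 35 or 36 OIR dividing cells, from the lowest to the highest S-phase share, all members summed to 888 CPM (793 to 990.0), 1009.6 CPM (910.3 to 1117), 740.0 CPM (665 to 821) and 96.8 CPM (71.6 to 128). The drop therefore came between the third bin, with S-phase shares of 28.0% to 55.2%, and the fourth, with 55.4% to 77.8%. The median cell had 8444, 7227, 13122 and 11805 UMIs, so the bins with more S-phase UMIs were also the deeper ones, and the part of depth was not tested in the bins. The bins also differed in cell type, since the fourth held dividing cells of both macrophage clusters. Those of the larger macrophage cluster summed to less than the cells of the cluster led by Top2a, as given above. The part of cell type in the drop was not tested.

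The members read differently along this order. Hist1h1b read 110, 313, 258 and 19.8 CPM and Hist1h2ap 102, 177, 127 and 11.9 CPM over the same bins, so both were highest in the second bin, with intervals that overlapped those of the third. Hist1h1c read 171, 158, 58.4 and 9.88 CPM and Hist1h2bc 171, 77.7, 41.7 and 13.8 CPM, high in the bin with the lowest S-phase shares. Hist1h1e, at 57.9, 72.3, 79.2 and 7.90 CPM, was near level over the first 3 bins. Dividing cells outside the cluster led by Top2a also lay in these bins. The first bin held cells of the cytokine-high microglia cluster, with 23, 24, 14 and 12 member UMIs and 0 of Hist1h1b. The part of cell type in these levels was not tested. When cells were split by whether S-phase UMIs exceeded G2/M UMIs, the others stood 4.45-fold (3.65 to 5.48) above the 40 S-rich cells in OIR and 9.37-fold (5.26 to 18.4) above the 3 such cells in RA, and 8 of the 153 cells lay within 2 UMIs of the limit. As means over cells, the others stood 2.76-fold above the S-rich cells in OIR and 1.21-fold in RA, and after thinning to 2100 UMIs the S-rich OIR cells lay at 0.338-fold (0.151 to 0.662) of the others. The RA value thus rests on pooled UMIs of few cells, and its S-rich cells included cells of both macrophage clusters. The direction was shared by all 5 kinds in OIR, from 3.95-fold for H1 to 6.91-fold for H2B. This split sorts cells along a range and gives no stage to a single cell.

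**Figure D4:**
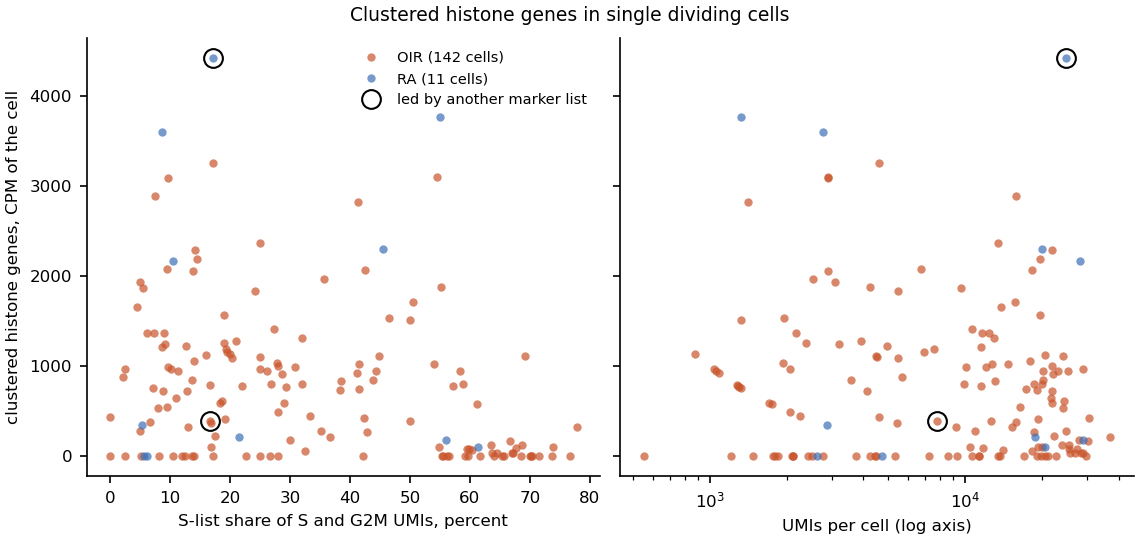
Summed member level (CPM) of each dividing cell against its S-phase share (percent) and against its number of UMIs, RA in blue and OIR in orange, with rings on the 2 cells led by another marker list. The fourth bin of OIR cells by S-phase share sums to 96.8 CPM, and the ringed RA cell stands at the top with 4430 CPM.

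Between libraries, the members of dividing cells summed to less in OIR, 0.408-fold of RA (0.355 to 0.471). Without the neutrophil-led and the red cell-led cell, RA fell to 134 UMIs in 10 cells, or 1025 CPM (859 to 1214), OIR lay at 642 CPM, and the ratio was 0.626 (0.523 to 0.754). The median dividing cell went the other way, at 348 CPM in RA and 685 CPM in OIR, and at 281 and 727 CPM without these cells. The summed RA level is weighted by a few cells with many member UMIs. Of 17 members read, 11 were lower in OIR by more than 2-fold, against 11.5% of all genes, and 0 were higher, against 22.6%. Without the pair of cells, 6 of 15 were lower, against 10.3% of genes, and 2 were higher, against 26.2%. Of the lower ones Hist2h2ac, Hist1h2be and Hist1h1a, and both higher ones, Hist1h4i and Hist1h2bc, held 3 or fewer RA UMIs. The intervals of these members included 1. Of the 134 RA UMIs, 61 and 46 came from single cells, and the intervals do not cover that spread.

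Single members moved with that cell to different degrees. Hist1h1b read 341 CPM in RA and 169 CPM in OIR, a ratio of 0.496 (0.369 to 0.678), which became 0.850 (0.569 to 1.32). Hist1h2ap went from 0.439 (0.303 to 0.651) to 0.648 (0.407 to 1.09), and Hist2h2ac, with 10 UMIs in each library, fell to 2 UMIs in RA. Without the pair, Hist1h1e lay at 0.286 (0.181 to 0.469), Hist1h2ae at 0.216 (0.109 to 0.458) and Hist1h4d at 0.160 (0.0722 to 0.381), the latter on 10 RA and 21 OIR UMIs. Hist1h1c, with 12 and 154 UMIs, had in the same cells a ratio of 0.978 (0.544 to 1.93).

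**Figure D5:**
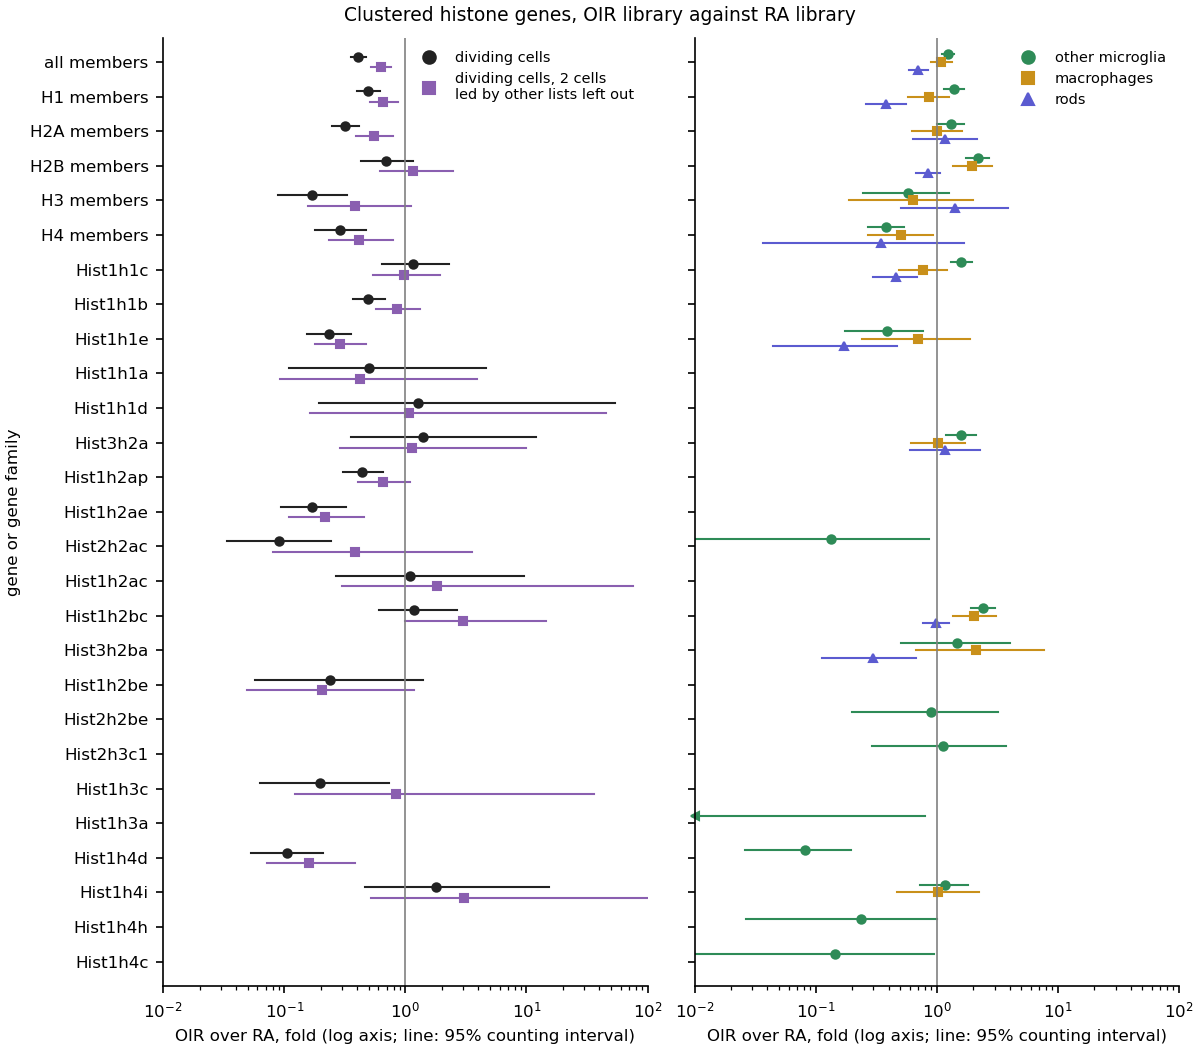
Ratio of OIR to RA level of the members on a log axis with 95% counting intervals, in dividing cells with and without the 2 cells led by other marker lists (left) and in other microglia-like, macrophage-like and rod-like cells (right). Hist1h1b in dividing cells moves from 0.496 to 0.850 without them, and Hist1h4d lies at 0.0817 in other microglia-like cells.

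In other microglia-like cells the sum was slightly higher in OIR, 1.24-fold (1.11 to 1.38), and without Hist1h2bc the ratio was 1.01 (0.889 to 1.15). This group joins clusters named microglia, activated microglia and microglia high in cytokine or immediate early genes. Cells outside the activated clusters numbered 703 of 778 in RA and 366 of 548 in OIR. A Malat1 UMI was held by 735 RA and 369 OIR cells. The OIR to RA ratios of this group thus compare different mixes of cell states. Hist1h2bc, the H2B gene with the long span, read 17.8 CPM in RA and 42.9 CPM in OIR, 2.41-fold (1.92 to 3.04). Hist1h1c and Hist3h2a were each 1.59-fold higher, with intervals of 1.30 to 1.94 and 1.20 to 2.10. Of 13 members read, only Hist1h2bc was higher by more than 2-fold, against 7.46% of all genes, and 6 were lower, against 8.85%: Hist1h1e, Hist1h4d, Hist2h2ac, Hist1h4h, Hist1h4c and Hist1h3a. All but Hist1h1e passed the filter only through RA, where they were high, with 0 to 5 UMIs in OIR, so the filter favoured this direction and the count is a description. Hist1h3a held 0 UMIs in OIR against 11 in RA, and at the floor of 3 UMIs its ratio was at most 0.548, short of the 2-fold limit.

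Hist1h4d (chr13:23581568-23581969) showed a wide gap. It held 123 UMIs in RA other microglia-like cells, or 15.6 CPM, and 5 in OIR, or 1.28 CPM, 12.2-fold lower (5.11 to 38.4). It was detected in 102 of 778 RA cells (13.1%) and in 5 of 548 OIR cells (0.912%), and after thinning to 2100 UMIs in 28 of 751 and 0 of 470. In rod-like cells it was found in 3 of 191 and 1 of 153. In macrophage-like cells it held 8 UMIs in RA and 1 in OIR, in monocyte-like cells 5 and 0, and in cells outside the 5 groups 39 and 0. Hist1h1e held 52 and 10 UMIs in other microglia-like cells, a ratio of 0.386 (0.175 to 0.769) that turned to 1.04 (0.304 to 3.27) after thinning, and 37 and 4 UMIs in rod-like cells, 0.170 (0.0440 to 0.473). With 1 library per condition, such differences cannot be told apart from differences in the making of the libraries.

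In macrophage-like cells the members summed to 168 CPM in RA and 184 CPM in OIR, 1.09-fold (0.892 to 1.34). Of 6 members read, 2 were higher in OIR, against 9.87% of all genes, and 0 were lower, against 7.08%. Hist1h2bc went from 38 UMIs to 81 UMIs, 2.04-fold (1.37 to 3.08), and Hist3h2ba from 5 to 11, with an interval of 0.674 to 7.73. Hist3h2ba passed the filter only through OIR, where it was high. Cells outside the macrophage cluster lowest in Malat1 numbered 69 of 83 in RA and 76 of 112 in OIR. A Malat1 UMI was held by 75 RA and 80 OIR macrophage-like cells, so these ratios also compare different mixes of cells. In monocyte-like cells the sum was 0.673-fold (0.488 to 0.926) in OIR, while each of the 4 members read stayed within 2-fold, against 10.3% of genes higher and 7.94% lower. Hist1h2bc held 13 UMIs in the monocyte-like cells of each library, 0.790-fold (0.337 to 1.85), so its OIR excess was seen in microglia-like and macrophage-like cells and its interval in monocyte-like cells overlapped both directions. Whether these ratios differ between groups was not tested.

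Rod-like cells carried another set of members. Hist1h2bc held 176 and 110 UMIs there, 580 CPM (497 to 672) in RA and 570.1 CPM (469 to 687) in OIR, with a ratio between libraries of 0.983 (0.767 to 1.25). Against other microglia-like cells Hist1h2bc was 32.6-fold (26.0 to 41.0) higher in RA and 13.3-fold (10.4 to 17.0) in OIR. Hist3h2ba, with 37 and 7 UMIs, was 87.3-fold (43.6 to 190) and 17.8-fold (5.49 to 56.1) higher, and Hist1h1c, with 110 and 32 UMIs, 12.4-fold and 3.57-fold. Hist1h1b and Hist1h2ap, the members most confined to dividing cells, held 0 UMIs in the 344 rod-like cells. In all, 8 of 13 members were higher in RA rod-like cells, against 24.1% of genes, and 3 lower, against 44.1%. Of these 3, Hist2h2ac and Hist1h3a held 0 UMIs in RA rod-like cells, where the floor of 3 UMIs allows a higher level as well, and Hist1h4i held 1 UMI. Of the 8 higher members, Hist2h2be held 1 UMI in RA rod-like cells, at 2.88-fold (0.0658 to 20.8). Hist1h4c and Hist2h3c1 held 4 and 5 UMIs there. In OIR 5 of 6 were higher, against 24.3%, and 0 lower, against 41.9%. Among these 5, Hist1h1e held 4 UMIs in rod-like cells.

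Between libraries, the sum in rod-like cells was 0.706-fold (0.590 to 0.842) in OIR and 0.4998-fold (0.380 to 0.651) without Hist1h2bc. Of 5 members read, 3 were lower by more than 2-fold, against 11.1% of all genes, and 0 higher, against 11.2%. These were Hist1h1c at 0.458 (0.299 to 0.684), Hist1h1e at 0.170 and Hist3h2ba at 0.298 (0.112 to 0.676). Hist1h1e and Hist3h2ba passed the filter only through RA, where they were high, with 4 and 7 UMIs in OIR. The filter thus favoured this direction, and the count is a description. Restricted to rod-like cells with a Malat1 UMI, 30 in RA and 10 in OIR, the summed ratio turned to 1.11 (0.651 to 1.81).

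RNA free in the suspension gives every cell type a low level of the genes of others. The rod marker list stood in other microglia-like cells at 0.0682% of its rod-like level in RA and 0.0729% in OIR. The same share was read for the named members with more than 3 UMIs in the rod-like cells of both libraries. It was 3.06% and 7.52% for Hist1h2bc, 8.06% and 28.0% for Hist1h1c, and 19.3% and 26.0% for Hist3h2a. Hist3h2ba stood at 1.15% and 5.63%, Hist1h1e at 5.41% and 12.3%, and Hist2h3c1 at 6.94% and 6.15%. The part of free RNA in these levels was not tested.

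Genes that work beside the clustered histones were read in the same way for dividing cells over other microglia-like cells. The dividing cells had been chosen by genes of mitosis and DNA replication, so these lists are not independent of that choice. The filter on both groups together also favours genes that are high in dividing cells. In OIR, Rrm2 and Cdc6 held 5 and 0 UMIs in other microglia-like cells and passed it only through the dividing cells. The counts for these lists are thus a description. Of the replication genes, 14 of 14 in RA and 15 of 15 in OIR were higher by more than 2-fold, against 17.0% and 12.2% of all genes, among them Pcna, the clamp of DNA polymerase, at 3.12-fold and 3.44-fold, the helicase subunit Mcm6 at 20.9-fold and 4.17-fold, and the nucleotide enzymes Rrm1 at 13.6-fold and 11.8-fold and Tyms at 21.2-fold and 12.5-fold. The helicase subunit Mcm3 stood at 3.51-fold and 2.68-fold and the flap endonuclease Fen1 at 6.99-fold and 5.63-fold. Of the genes listed as replication-independent histone variants, 7 of 9 in RA and 6 of 10 in OIR were higher, against the same 17.0% and 12.2%. These included Cenpa, the H3 variant of centromeres, at 65.8-fold and 32.2-fold, H2afx, known from DNA damage, at 14.6-fold and 14.0-fold, H2afz at 5.52-fold and 4.60-fold, and H2afv at 5.64-fold and 6.17-fold. The linker variant H1f0 was 6.15-fold and 2.03-fold higher.

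Of the histone chaperones and importers, 8 of 16 in RA and 9 of 17 in OIR were higher, against 17.0% and 12.2% of all genes, with Asf1b, which hands H3 and H4 to the nucleosome assembly factors, at 50.6-fold and 26.8-fold and Hjurp, the chaperone of Cenpa, at 8.52-fold and 7.65-fold. Nap1l1, Rbbp7 and Ssrp1 lay between 2.37-fold and 3.08-fold in both libraries, and Hat1, a histone acetyltransferase, at 2.26-fold (0.962 to 4.56) in RA and 2.88-fold (2.38 to 3.49) in OIR. Of the factors that bind or process histone mRNA, 1 of 11 in RA and 3 of 11 in OIR were higher, against 17.0% and 12.2% of all genes, and the RA count is thus no more than the background. Eri1, an exonuclease of the histone mRNA end, was 2.08-fold (0.885 to 4.18) in RA and 2.16-fold (1.66 to 2.81) in OIR. In other microglia-like cells, 9 of 13 replication genes read over 2-fold more in OIR than in RA, against 7.46% of all genes, whereas 0 of the 9 histone variants read were, beside the single clustered histone gene, Hist1h2bc.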

How the data were processed

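The authors made raw UMI counts for each gene and barcode with Cell Ranger 3.1.0 from 10x 3′ v3 libraries (mm10, per the submitters' processing notes, which also name Seurat 4.0) and deposited 1 matrix per condition without normalization. Cells over 20% mitochondrial UMIs and the 2% of cells with most genes were left out. The limit on genes was passed by 29 RA and 25 OIR barcodes. It took out 2 of 13 RA and 16 of 160 OIR cells that met the dividing rule. Cells were clustered with Seurat 5.3.0 (R 4.3.3) without the members and the 6 genes of the dividing rule among the anchor genes, and clusters were named from their 10 leading genes and fixed marker lists. UMIs were summed per group and scaled to CPM. Intervals are exact Poisson (levels), binomial (shares) and conditional (ratios), from scipy 1.17.1. They were tried on simulated Poisson counts, which hold no spread between cells, so their cover of that spread was not tested. Scrublet (scanpy 1.11.5) called 0.276% and 0.159% of barcodes doublets, 0 of them dividing, too few to rely on, and none was left out. Named members are those with 20 or more UMIs and the next 5. Of the related lists, genes past 2-fold in both libraries are named, at most 6 a list. Members and lists were chosen with earlier results of these data known. Promoters are from RefSeq GRCm38.p6.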

Additional observations from a re-analysis of the deposited data

Results flagged for a closer look

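The ratio of OIR to RA for the summed members did not point the same way in all groups. It was 1.24 in other microglia-like cells, but 0.408 in dividing cells, 0.673 in monocyte-like cells and 0.706 in rod-like cells, each with an interval that excluded 1. Hist1h1c showed the same split, at 1.59 in other microglia-like cells and 0.458 in rod-like cells. With 1 library per condition these differences between groups were not tested, and the values in dividing cells and rod-like cells change with the choice of cells, as given in the report.

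Cells outside the 5 groups also held the members. The highest level was in 197 cells of a cluster left without a name, led by photoreceptor and neuronal genes such as Rp1, Rpgrip1 and Neurod1, at 1065 CPM in RA and 785 CPM in OIR. A cluster of 15 cells led by endothelial and pericyte genes such as Cldn5 and Rgs5 held 237 CPM in RA and 116 CPM in OIR. A cluster of 28 cells led by interferon-induced genes such as Ifit1 and Rsad2 held 324 CPM in RA and 170 CPM in OIR. Other microglia-like cells, for comparison, lay at 109 and 135 CPM.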

How the results depend on the processing

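Counting error alone was measured, and members with few UMIs cannot be ranked at this depth. No paired analysis was possible because each condition has 1 library. Of 339 checks of the main results under 20 alternatives, of which 15 were planned and 5 added after seeing the data, 296 stayed within the main interval or within 1.5 times the main count. With 2 of the 6 genes for a dividing cell, its ratio to microglia-like cells was 8.09 (RA) and 4.09 (OIR), the OIR to RA ratio 0.630, the share of dividing cells 2.26% and 18.9%, and S-rich over other dividing cells 0.409 (RA) and 0.248 (both libraries). With 4 genes the OIR share was 12.5% and the S-rich ratio in RA 0.0519. After thinning, the values were 5.57 for OIR dividing over microglia-like cells, 0.553, 1.61 and 0.569 for OIR over RA in dividing, macrophage-like and rod-like cells, 3 and 4 members higher in RA and OIR dividing cells, 21 members with 3 UMIs, a 9.61% OIR share, and S-rich ratios of 0.338 (OIR) and 0.319 (both). Without the gene filter they were 9.13 (RA dividing over microglia-like), 0.567 (OIR over RA, dividing), 1 member lower in RA and an S-rich ratio of 0.201 (RA). Cells with a Ptprc UMI gave an S-rich ratio of 0.165. Without integration, which left 433 and 116 other microglia-like cells, OIR dividing over microglia-like cells was 2.75, OIR over RA in microglia-like cells 1.97, and 1 member was lower in RA. Means over cells gave 10.9 (RA dividing over microglia-like), 0.486 and 1.05 (OIR over RA, dividing and microglia-like) and S-rich ratios of 0.824, 0.362 and 0.415 (RA, OIR, both). Centring on the median gene gave 0.353 for OIR over RA in dividing cells. Without Hist1h2bc, OIR dividing over microglia-like cells was 6.19 and OIR over RA 1.01, 0.846 and 0.4998 in microglia-like, macrophage-like and rod-like cells. Among the added alternatives, leaving out the top cell of each group gave 9.51 (RA) and 0.604, and leaving out cells led by other lists 9.40 and 0.626. In rod-like cells with a Malat1 UMI, OIR over RA reversed to 1.11. Among single members, thinning reversed OIR over RA for Hist1h2ap in dividing cells (1.20) and Hist1h1e in microglia-like cells (1.04), and without integration Hist1h1c in OIR dividing over microglia-like cells was 0.829.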
